A study of Homo sapiens with 9 samples.

Results

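The comparison described here sets LNCaP cells in which UGT2B28 was overexpressed in a knockdown background (rescue) against the knockdown cells themselves, across all genes. It was taken from the sample titles: 3 rescue libraries (titled KD4OE) and 3 knockdown libraries (KD4), 6 of the 9 libraries of the series. The other 3, from LNCaP controls, entered the statistical model only to share its estimate of the spread, and their levels are printed as a reference. LNCaP, an established human line from a prostate cancer metastasis, responds to androgens. All groups were grown in RPMI with fetal bovine serum and labelled with a time of 24 h. Per the labels, puromycin at 3 µg/mL selected the knockdown cells and G418 at 1 mg/mL the rescue cells, so the antibiotic and the construct differ together and cannot be told apart. A single knockdown line was sequenced. Whether replicates came from separate cultures is not stated, so the p-values cover the variation among these libraries alone, and that may be technical.

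UGT2B28 belongs to the UDP-glucuronosyltransferases of the UGT2 family, enzymes of the endoplasmic reticulum that attach glucuronic acid from UDP-glucuronate to lipophilic molecules. Conjugated androgens are inactive and leave the cell, and UGT2B15 and UGT2B17 are known as the main androgen-inactivating members in the prostate. Transcripts of both are known to fall when androgen signalling is active.

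Gene counts summed to 21753045 to 26145310 per knockdown library and 20300744 to 26459528 per rescue library. Pearson correlations of log2 CPM (CPM, the count scaled to a common library size with TMM factors) were 0.9807 to 0.9839 within groups and 0.9742 to 0.9776 between rescue and knockdown. Luminal prostate markers were present at high levels, as the cell type label implies, with KLK3 at a mean of 3746 CPM in knockdown and 4403 in rescue. In these bulk libraries, fewer cells of a type and less RNA per cell cannot be told apart. Unless said otherwise, a gene is called when its adjusted p is under 0.05 in edgeR's quasi-likelihood test, Benjamini-Hochberg adjusted over 18389 genes, and rose and fell refer to called genes.

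UGT2B28 (ENSG00000135226.17_3) was the gene with the greatest rise among those of at least 5 CPM in 1 group, and its close relatives UGT2B15 and UGT2B17 fell. The UGT2B28 counts were 17, 8 and 1 in the knockdown libraries and 1124, 1554 and 1857 in the rescue libraries, which is 0.648, 0.336 and 0.046 CPM against 55.0, 62.3 and 69.5 CPM. The control libraries held 25, 4 and 10 counts, so the rescue level lay far above both other groups, and the counts do not separate knockdown from control. The log2 fold change was 7.41 (SE 0.34, adjusted p = 2.7e-08). Its size rests on few knockdown counts and ranged from 6.95 to 8.265 when single libraries were left out.

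UGT2B15, which glucuronidates dihydrotestosterone and its metabolites, was at 14.6, 11.8 and 15.8 CPM in knockdown and 7.05, 7.21 and 4.94 in rescue. Every rescue library was below every knockdown library (log2 fold change −1.14, SE 0.14, adjusted p = 2.5e-06). UGT2B17, which acts on testosterone as well, was at 27.7, 34.1 and 35.9 CPM in knockdown and 18.5, 18.7 and 13.0 in rescue, again with no overlap (−0.96, SE 0.12, adjusted p = 3.8e-06). Both stood at 82.9 to 131 CPM in control, so the rescue libraries were the lowest of the 3 groups. UGT2B11 had 16, 16 and 21 counts in knockdown and 2, 15 and 19 in rescue and was not called (adjusted p = 0.40). Its control libraries held 1104, 1087 and 965 counts. The other 6 members counted, UGT2A1, UGT2A2, UGT2A3, UGT2B4, UGT2B7 and UGT2B10, had 0 to 9 counts in each of the 6 libraries and were not tested. The UGT2B genes are close copies of each other, and how reads shared between them were counted is not given in the sources used here.

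The supply of the cosubstrate did not move as a unit. UGDH, which oxidises UDP-glucose to UDP-glucuronate, fell from 118, 124 and 101 CPM to 82.7, 90.3 and 78.6 (log2 fold change −0.44, SE 0.08, adjusted p = 0.00045). PGM1, the phosphoglucomutase upstream of UDP-glucose, rose from 90.7, 103 and 83.4 CPM to 142, 146 and 144 (0.64, SE 0.08, adjusted p = 1.2e-06). Neither gene's groups overlapped, and the other 7 of 9 tested supply genes were not called.

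**Figure D1:**
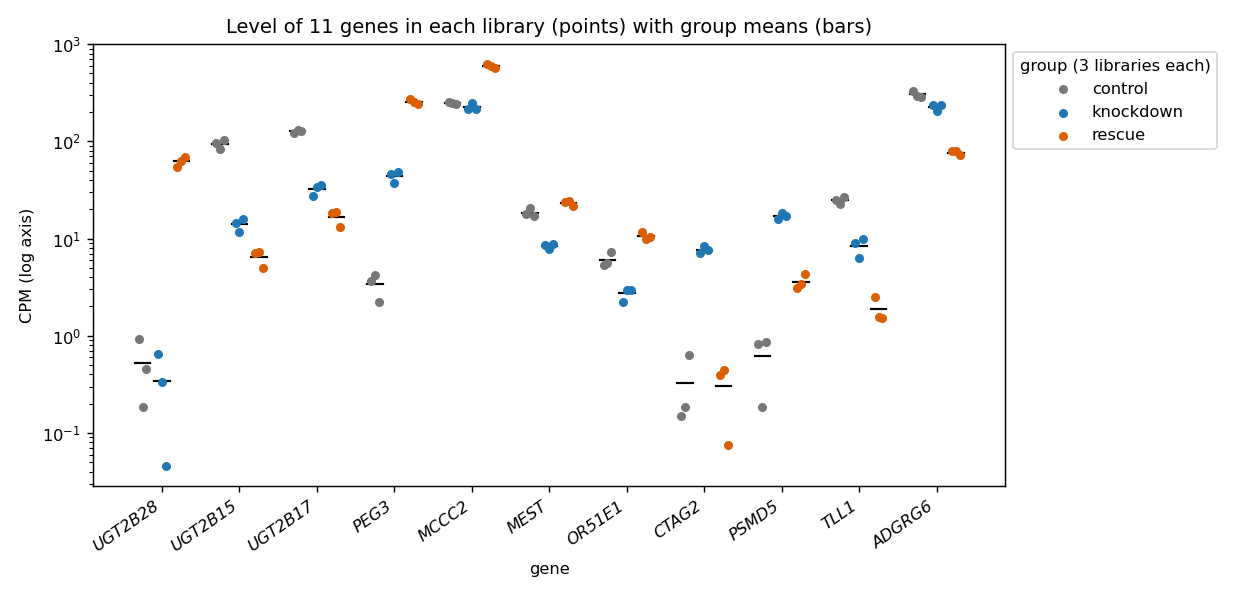
CPM on a log axis for 11 genes, with 1 point per library and a bar at the mean of each group of 3 libraries (control grey, knockdown blue, rescue orange). UGT2B28 lies at 55.0 to 69.5 CPM in rescue and under 1 CPM in the other libraries, and for the other 10 genes no rescue library overlaps a knockdown library. This was a condition for naming the most raised, most lowered and most abundant genes.

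Across all genes, 957 rose and 897 fell in rescue against knockdown, 1854 in all, or 10.1% of the genes tested (5.2% higher and 4.88% lower). Most of these changes were small. Of the raised genes 589 (61.5%) and of the lowered genes 627 (69.9%) changed less than 1.5-fold, with a median log2 fold change of 0.47 and −0.43. At least 2-fold changes were found for 184 raised and 100 lowered genes, 1.54% of genes tested. When the test itself required a fold above 1.5, 113 genes remained called. Protein-coding genes were called in 12.6% of 13109 cases, antisense genes in 4.47% of 2260 and long intergenic noncoding genes in 3.16% of 917. Those noncoding groups were also the weaker ones, with a median of 2.55 and 1.1 CPM against 24.5 CPM for coding genes. The libraries of the 2 groups did not overlap for 5050 genes (27.5% of genes tested), and 1812 genes (9.85%) were both called and without overlap. As 1812 of the 1854 called genes showed no overlap, its absence adds little to a call. It was also a condition for naming genes below as most raised, most lowered or most abundant. Leaving out rescue replicate 1 lowered the total of calls to 1193.

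**Figure D2:**
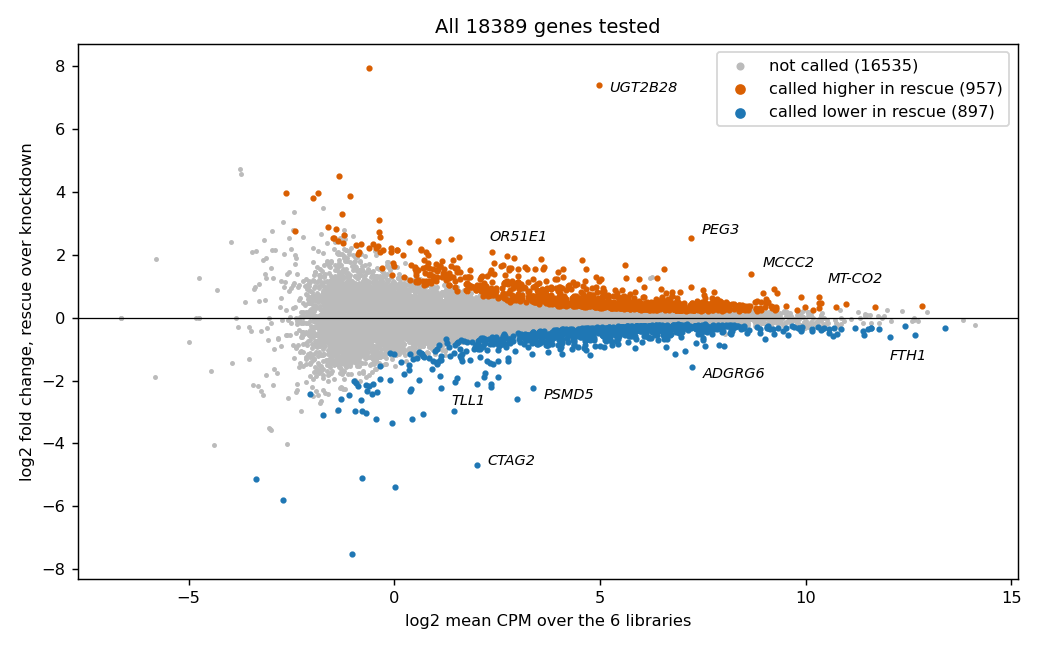
Log2 fold change of rescue over knockdown against the log2 mean CPM over the 6 libraries, 1 point per gene tested, with called genes in orange (957 higher) and blue (897 lower). UGT2B28 stands apart at 7.41, PEG3, MCCC2 and OR51E1 lie above 1, and CTAG2, PSMD5, TLL1 and ADGRG6 lie below −1.

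The 20 most raised named genes all held their call with any single library left out. PEG3, an imprinted gene for a zinc finger protein expressed from the paternal allele, was at 45.9, 36.9 and 48.6 CPM in knockdown and 271, 251 and 240 in rescue (log2 fold change 2.54, SE 0.12, adjusted p = 8.2e-11). It was at 2.22 to 4.26 CPM in control, so the 3 groups formed separate steps. Its exons overlap ZIM2 on the same strand, and reads of that pair cannot be fully parted. MEST, a second imprinted gene of paternal expression, which encodes a hydrolase-like protein, rose from 8.65, 7.82 and 8.83 CPM to 23.8, 24.2 and 21.7 (1.46, SE 0.13, adjusted p = 3.9e-09). These were the only members called among 25 tested imprinted genes (8.0%, against 10.1% of all genes tested), whose median log2 fold change was 0.05.

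PARVA, alpha-parvin, links integrins to actin and rose from 1.83, 2.14 and 1.98 CPM to 8.52, 7.86 and 8.72 (2.08, SE 0.25, adjusted p = 1e-06). OR51E1, an olfactory receptor known from prostate tissue, rose from 2.25, 2.94 and 2.99 CPM to 11.6, 10.0 and 10.4 (1.97, SE 0.20, adjusted p = 5.7e-08). In both genes every rescue library lay above every knockdown and control library. SLC22A3, an organic cation transporter, rose from 11.1, 7.94 and 12.2 CPM to 40.1, 34.5 and 36.3 (1.83, SE 0.14). CXCL12, the chemokine that binds CXCR4, had no counts in control and rose from 2.21, 1.30 and 3.86 CPM to 7.10, 8.02 and 9.5 (1.75, SE 0.30). VANGL2, a planar cell polarity protein, rose by 1.58 and the membrane protein PLP2 by 1.63.

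ALDH5A1, which completes the breakdown of the neurotransmitter GABA to succinate, rose from 5.60, 5.42 and 4.28 CPM to 17.3, 20.4 and 18.2 (1.87, SE 0.17, adjusted p = 8.3e-09). ABAT, the transaminase of the preceding step, rose from 17.4, 15 and 15.7 CPM to 36.1, 28.9 and 31.0 (0.99, SE 0.11, adjusted p = 3.9e-07). With ALDH6A1 (0.39) and ALDH1A3 (0.48), 4 of 15 tested GABA shunt and aldehyde dehydrogenase genes rose and 0 fell. Outside the shifted blocks 2 of 13 rose. ALDH1A3 lost its call without rescue replicate 1 (adjusted p = 0.056). ALDH5A1 and ABAT both lie in blocks of neighbouring genes with higher medians in rescue, described below. MCCC2, a subunit of the carboxylase of leucine breakdown, was the most abundant gene with a large rise, from 216, 248 and 216 CPM to 623, 600 and 568 (1.4, SE 0.08, adjusted p = 1.8e-13), while control lay at 241 to 255. Log2 rises of 1.54 to 1.62 were measured for FN3K, which removes sugars from glycated proteins, the secreted chaperone CLU (clusterin), the autophagosome protein MAP1LC3A, the ETS factor FEV and the zinc finger factor SALL2.

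Among lowered genes with a knockdown mean of 5 CPM or more CTAG2, a cancer-testis antigen on the X chromosome, fell furthest, from 7.09, 8.45 and 7.59 CPM to 0.392, 0.441 and 0.0748 (log2 fold change −4.69, SE 0.42, adjusted p = 8.9e-09). Control was at 0.15 to 0.635 CPM, so only the knockdown libraries held the transcript at a clear level. PSMD5, an assembly chaperone of the proteasome's regulatory particle, fell from 15.9, 18.2 and 16.9 CPM to 3.13, 3.37 and 4.34 (−2.23, SE 0.22, adjusted p = 4.1e-08). Of the 47 tested proteasome genes 4 more were called, with smaller changes: PSMG1 (−0.59), ADRM1 (−0.34), PSMA3 (0.33) and PSMA4 (0.29). Each of these 4 lost its call without 1 or more libraries, ADRM1 only without rescue replicate 1 (adjusted p = 0.053). With PSMD5, 10.6% of the proteasome genes were called, near the 10.1% of all genes tested. TLL1, a metalloprotease of the tolloid family that processes procollagen, fell from 8.99, 6.26 and 9.98 CPM to 2.50, 1.56 and 1.53 (−2.19, SE 0.20, adjusted p = 1.4e-08). ACOX2, a peroxisomal oxidase of bile acid intermediates, fell from 7.85, 6.89 and 10.0 CPM to 1.62, 1.96 and 2.06 (−2.12, SE 0.25). DHX58, which encodes the RNA sensor LGP2, fell from 7.70, 9.46 and 10.1 CPM to 2.64, 2.28 and 2.47 (−1.88, SE 0.22). A lack of overlap between the groups was a condition for naming CTAG2, PSMD5, TLL1, ACOX2 and DHX58 here. None of these 5 calls was lost when a library was left out.

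ADGRG6, an adhesion G protein-coupled receptor, was the most abundant of the 20 most lowered genes, at 237, 206 and 235 CPM in knockdown and 78.9, 78.8 and 71.5 in rescue (−1.56, SE 0.08, adjusted p = 7.8e-14). IGFBP3, which binds insulin-like growth factors outside the cell, fell from 44.9, 37.6 and 30.1 CPM to 17.5, 15.8 and 16.3 (−1.19, SE 0.12, adjusted p = 3.8e-08). DOCK6, an exchange factor for RAC1 and CDC42, fell from 156, 154 and 163 CPM to 62.2, 75.9 and 74.7 (−1.15, SE 0.09). Its exons overlap ANGPTL8 on the other strand. The bone morphogenetic protein antagonist CHRD fell by 1.36, the cell adhesion gene SDK1 by 2.10, the lysosomal protease CTSC by 1.25, and GNAI1, an inhibitory G protein subunit, by 1.08 on the log2 scale.

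The most abundant genes with at least a 1.5-fold change included enzymes of lipid and sugar metabolism, transporters and a matrix protein. FADS2, the fatty acid delta-6 desaturase, rose from 1031, 961 and 984 CPM to 1632, 1584 and 1481 (0.66, SE 0.08, adjusted p = 6.4e-07). ENO2, an enolase of glycolysis, rose from 733, 815 and 685 CPM to 1164, 1147 and 1181 (0.65, SE 0.08, adjusted p = 1.2e-06), the level of the control libraries. MYO6, an unconventional myosin, rose from 383, 344 and 364 CPM to 681, 603 and 618 (0.80, SE 0.08). The dihydroceramide desaturase DEGS1 (0.78), the lysophosphatidic acid receptor LPAR3 (0.61), the zinc transporter SLC30A4 (0.64) and HES6 (0.63), a basic helix-loop-helix factor, rose as well. In the other direction FN1, fibronectin, fell from 258, 232 and 239 CPM to 150, 118 and 124 (−0.89, SE 0.10, adjusted p = 5.2e-07), against 1107 to 1410 in control. SLC16A1, the lactate and pyruvate transporter MCT1, fell from 322, 314 and 280 CPM to 173, 168 and 164 (−0.86, SE 0.07, adjusted p = 1.8e-09). ELF3, an epithelial ETS factor, fell from 317, 335 and 362 CPM to 177, 195 and 177 (−0.89, SE 0.07, adjusted p = 1.1e-09). ASPH, a hydroxylase of the endoplasmic reticulum, fell by 0.68 and FBXL17, a ubiquitin ligase subunit, by 0.72.

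The changes were not spread evenly along the chromosomes. Genes of at least 3 mean CPM were ordered by position in GENCODE v29 and divided into 316 blocks of about 40 neighbours, and 38 blocks were marked as shifted, with a median log2 fold change of at least 0.15 in size and no overlap of the libraries' block medians. This division was made after the values were seen and is a description with no test. The shifted blocks held 2150 tested genes, of which 263 rose and 156 fell (19.5% called), and the other 278 blocks and ungrouped genes held 16239, of which 694 rose and 741 fell (8.84%). The block limits were chosen on the fold changes themselves, so nothing is read from the difference of these shares. Outside the shifted blocks 245 of the 284 calls of at least 2-fold remained.

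The block with the highest median ran from USPL1 to TPT1 on chromosome 13, with 22 of 39 genes higher, 0 lower and a median log2 fold change of 0.40. Set against their mean over the knockdown and rescue libraries, its genes had medians of −0.166, −0.203 and −0.19 in knockdown and 0.192, 0.182 and 0.202 in rescue. The control libraries were lower still, at −0.534, −0.451 and −0.446. Over the whole of chromosome 13, 26.5% of 283 tested genes rose and 1.77% fell. The longest lowered run lay on chromosome 6 between SH3BGRL2 and PDCD2, where 66 of 231 genes fell, 5 rose and the median was −0.26. There the knockdown libraries were at 0.145, 0.151 and 0.097 and the rescue libraries at −0.112, −0.116 and −0.139, with control near knockdown at 0.082 to 0.165. The 2 raised runs on the same chromosome, PAK1IP1 to DDR1 and FKBPL to ANKRD18EP, had 28 and 23 genes higher, 2 and 0 lower, and medians of 0.20 and 0.19.

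A further raised run on chromosome 1, from KLHL20 to ARID4B, held 61 higher and 6 lower of 240 genes (median 0.20). On chromosome 4 the raised runs GAR1 to DCLK2 (78 genes, median 0.22) and NEK1 to FRG1 (39 genes, 0.18) each held 13 higher and 1 lower. Chromosome 16 held 3 raised runs with medians of 0.18 to 0.21, and chromosome 21 a lowered run with 23 of 125 genes lower and 5 higher (−0.18). Many genes named in the text lie inside these runs. SLC22A3, ADGRG6, TNFAIP3 and FUCA2 lie on chromosome 6, as do ALDH5A1, CDKN1A and the histone cluster, and ELF3, SLC45A3 and DEGS1 on chromosome 1. The shift of a run is small beside most of them: ADGRG6 fell by 1.56 in a run with a median of −0.26, SLC22A3 rose by 1.83 in that same run, and ELF3 fell by 0.89 in a raised run. For gene groups below, counts outside the shifted blocks are given where they differ much. The part of the block shifts in the results was not tested.

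**Figure D3:**
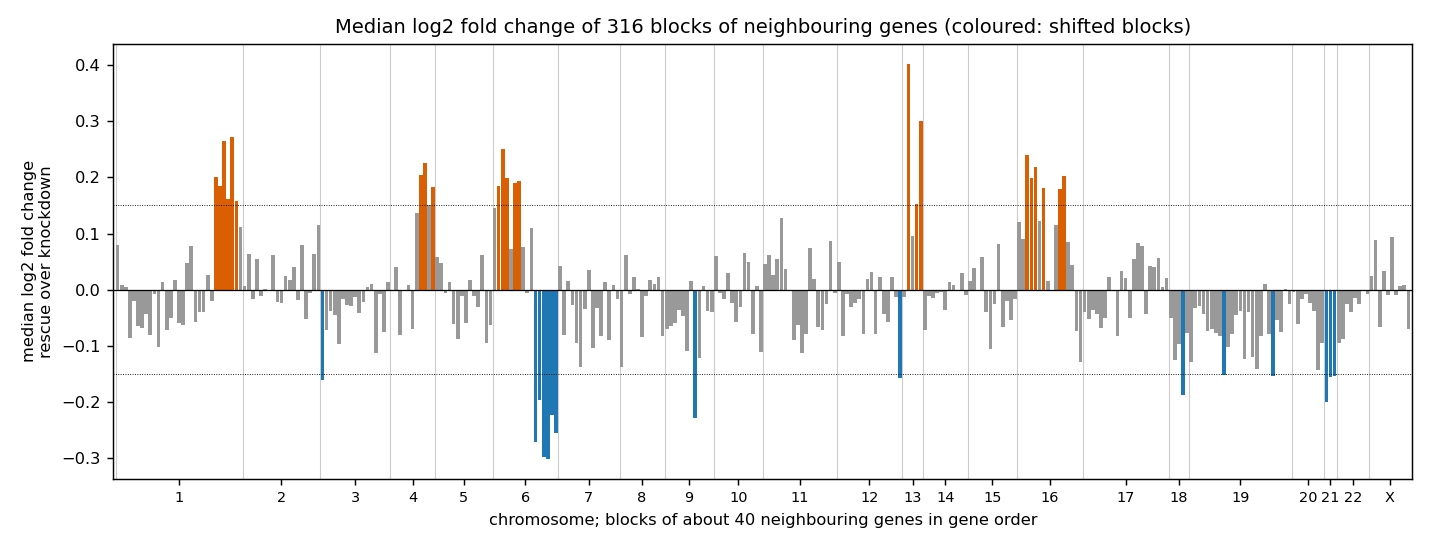
Median log2 fold change of rescue over knockdown for 316 blocks of about 40 neighbouring genes, in gene order along the chromosomes, with shifted blocks in orange (higher in rescue) and blue (lower) and dotted lines at 0.15 and −0.15. The highest bar is the block on chromosome 13 at 0.40, and the run of blue bars on chromosome 6 holds 66 genes called lower.

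Gene groups were then described with 54 lists, each by the number of tested members called and by the median log2 fold change over all tested members, beside a median of −0.005 for all genes. Lists whose called members all went one way included mitochondrially encoded mRNAs, mitosis genes, histones and endoplasmic reticulum chaperones (higher) and ribosomal proteins, MAP kinase and immediate early genes and NF-kB genes (lower). Other lists, among them fatty acid synthesis, glycolysis and metal handling, had members called in both directions. The medians of these lists kept their sign under each of the 4 other scalings of the libraries that were run.

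**Figure D4:**
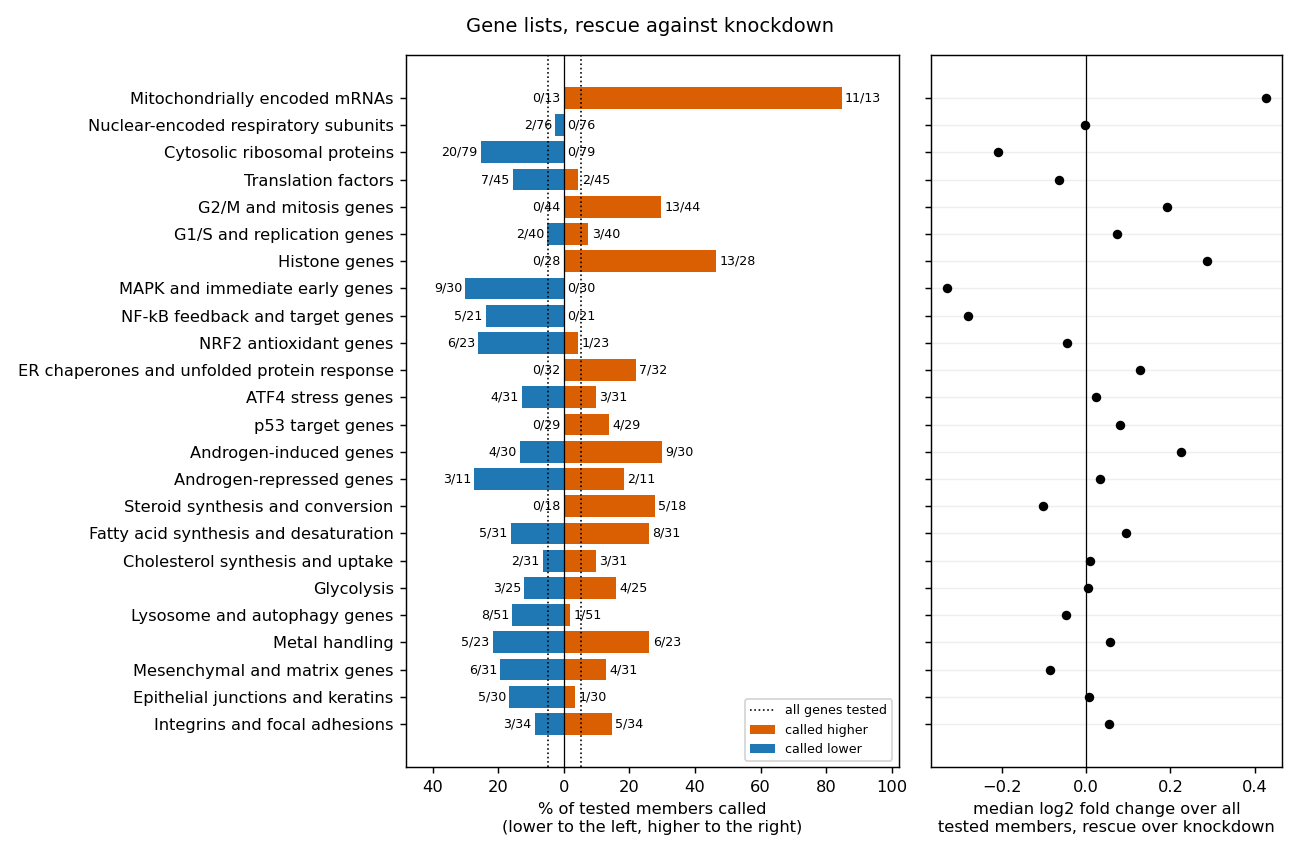
Left, the percentage of tested members of 24 gene lists called higher (orange, to the right) and lower (blue, to the left) in rescue, with the counts beside the bars and dotted lines at the shares of all genes tested (5.2% higher, 4.88% lower). Right, the median log2 fold change over all tested members, from −0.33 for MAP kinase and immediate early genes to 0.43 for mitochondrially encoded mRNAs.

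Genes that androgen raises in prostate cells were more often higher than lower in rescue. Of 30 tested, 9 rose, 4 fell and 17 were not called, with a median log2 fold change of 0.22. SLC45A3, the luminal transporter known as prostein, rose from 108, 91.0 and 101 CPM to 204, 195 and 187 (0.96, SE 0.08, adjusted p = 6.8e-10). PMEPA1 rose from 41.7, 37.5 and 42.0 CPM to 61.8, 65.5 and 61.7 (0.64, SE 0.10, adjusted p = 6.9e-05) and the kinase CAMKK2 from 70.1, 60.7 and 75.7 to 105, 94.2 and 95 (0.51, SE 0.09, adjusted p = 0.00012). The groups did not overlap in any of these genes. The kallikrein KLK3, known as PSA, was at 3580, 3874 and 3786 CPM in knockdown and 4577, 4554 and 4077 in rescue, a difference of 0.23 that was not called (adjusted p = 0.081). Its neighbour KLK2 fell from 1605, 1716 and 1767 CPM to 1395, 1377 and 1214 (−0.35, SE 0.08, adjusted p = 0.0047), a call lost without rescue replicate 3 (adjusted p = 0.058). ABCC4, an exporter, and CENPN, a centromere protein, both fell by 0.43. The largest of the 4 falls was that of MAF, from 4.53, 3.70 and 5.20 CPM to 2.40, 1.44 and 1.35 (−1.38, SE 0.33, adjusted p = 0.0064). Its call was lost without knockdown replicate 3 (adjusted p = 0.053) or rescue replicate 3 (0.05, rounded). Without knockdown replicate 2 the count of higher genes was 5, without rescue replicate 3 that of lower genes was 2, and outside the shifted blocks 5 rose and 2 fell of 20.

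Of 22 tested prostate lineage factors and their cofactors 5 fell and 1 rose. HOXB13, a prostate lineage factor, rose from 311, 305 and 328 CPM to 403, 388 and 376 (0.30, SE 0.07, adjusted p = 0.0061). ETV1, an ETS factor, fell from 82.6, 72.9 and 88.0 CPM to 60.8, 57.9 and 53.8 (−0.50, SE 0.10, adjusted p = 0.00065), the corepressor TLE1 by 0.80 and ONECUT2 by 0.87. Outside the shifted blocks 2 of 16 fell. Androgen-repressed genes were mixed: PEG3 and PIK3R3 rose, the second with its call lost without knockdown replicate 2 (adjusted p = 0.066), rescue replicate 1 or rescue replicate 2, and UGT2B15, UGT2B17 and BCHE, a cholinesterase, fell (BCHE from 19, 18.4 and 17.8 CPM to 13.1, 13.6 and 12.3).

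Among genes of steroid synthesis and conversion 5 of 18 rose and 0 fell, although the median over all 18 was −0.10. DHRS3, a retinaldehyde reductase of the same short-chain dehydrogenase family as many steroid enzymes, rose from 12.5, 11.8 and 13.2 CPM to 26.2, 28.1 and 22.7 (1.04, SE 0.11, adjusted p = 8.1e-08), against 66.3 to 72.1 in control. RDH11, another retinal reductase, rose from 173, 191 and 177 CPM to 218, 226 and 225 (0.31, SE 0.07, adjusted p = 0.0041). These 2 act chiefly on retinoids, and they were the only ones of the 5 that kept the call with every library left out. CYP11A1, which makes pregnenolone from cholesterol, rose from 2.74, 2.82 and 3.08 CPM to 6.46, 5.05 and 5.54 (0.98, SE 0.27, adjusted p = 0.018) and lost its call without knockdown replicate 1 (0.062) among others. Between 2 and 3 members of the list were called higher when 1 library was left out, 2 without knockdown replicate 1. In those cases 0 to 2 members were called lower.

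Genes of MAP kinase signalling and immediate early genes, which growth factor signals induce within minutes, were described as a single list. Of 30 tested, 9 fell and 0 rose, with a median log2 fold change of −0.33 (−0.36 over the 24 outside the shifted blocks, 8 of them lower). With 1 library left out, 7 to 8 fell and 0 to 2 rose. JUN, a subunit of the transcription factor AP-1, was at 318, 359 and 348 CPM in knockdown and 239, 237 and 236 in rescue (−0.53, SE 0.07, adjusted p = 1.3e-05). JUNB, another subunit, fell from 162, 221 and 234 CPM to 115, 127 and 109 (−0.81, SE 0.12, adjusted p = 0.00045), with the knockdown libraries themselves far apart. KLF10, a TGF-beta-inducible zinc finger factor, fell from 94.6, 102 and 94.8 CPM to 64.1, 66.6 and 66.2 (−0.56, SE 0.08, adjusted p = 1e-05). The 9 also held ETV1 and the receptor kinase gene EPHA2, which are on the list for MAP kinase signalling, and EPHA2 was not called when any 1 of the 6 libraries was left out (adjusted p of 0.058 to 0.085). KLF6 fell by 0.41, IER2 by 0.32 and JUND by 0.35, the last not called when rescue replicate 1 (adjusted p = 0.092), knockdown replicate 2 (0.053) or knockdown replicate 3 (0.052) was left out. For JUN, JUNB, KLF10 and KLF6 no rescue library overlapped a knockdown library. The prototype members were low or near the threshold: EGR1 was under 1 CPM in all 6 libraries, DUSP6 at 0.504 to 1.52, and FOS was at a mean of 128 CPM in knockdown and 106 in rescue, just short of the threshold (adjusted p = 0.05, rounded).

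NF-kB feedback and target genes were lower too, with 5 of 21 fallen, 0 risen and a median of −0.28. TNFAIP3 encodes A20, an inhibitor of NF-kB signalling that NF-kB itself induces. It was at 7.39, 6.35 and 7.13 CPM in knockdown and 1.71, 3.17 and 2.99 in rescue, without overlap (−1.39, SE 0.22, adjusted p = 6e-05), and at 7.03 to 8.83 in control. NFKBIB, an inhibitor that holds NF-kB in the cytoplasm, fell from 28.7, 31.8 and 29.9 CPM to 21.7, 19.4 and 18.2 (−0.61, SE 0.11, adjusted p = 0.00035). NFKB2, the p100 subunit, fell from 118, 127 and 124 CPM to 96.8, 94.5 and 99.3 (−0.34, SE 0.07, adjusted p = 0.0014). BCL3 (adjusted p up to 0.12, without rescue replicate 1) and SOD2 (up to 0.14, without knockdown replicate 2) were the other called members, and both lost the call in 4 or more of the 6 cases with a library left out. In all, 3 members were called lower without knockdown replicate 2, rescue replicate 1 or rescue replicate 2, and 3 of 17 outside the shifted blocks. With 1 library left out, 0 to 1 members were called higher. The inhibitor gene NFKBIA was at 115, 135 and 138 CPM in knockdown and 103, 131 and 107 in rescue and was not called (adjusted p = 0.27).

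The promoter of TNFAIP3 is shown because it is the most lowered gene of the group and carries a pair of NF-kB consensus sequences side by side. The window is the 250 bases before the transcript start in RefSeq (chr6:137867009-137867258, plus strand, GRCh38.p14), printed 5′ to 3′ with the matches in capitals.
TNFAIP3: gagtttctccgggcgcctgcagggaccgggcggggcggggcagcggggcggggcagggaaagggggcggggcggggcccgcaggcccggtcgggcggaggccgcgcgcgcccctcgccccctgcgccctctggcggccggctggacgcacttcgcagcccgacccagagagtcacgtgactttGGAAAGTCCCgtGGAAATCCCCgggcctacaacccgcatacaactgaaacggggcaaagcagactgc
The search used the NF-kB consensus on both strands, in windows from 250 bases before to 50 after the start. It matched 8 of 18 windows of tested NF-kB genes (44.4%), 2 of the 5 called ones, and 12.6% of the 11713 windows of all tested genes. The first of the 2 matches in TNFAIP3 begins 67 bases before the start. A match describes the letters only and shows no binding.

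Antioxidant genes under the factor NRF2 fell in 6 of 23 cases and rose in 1, with a median of −0.05. HMOX1, which degrades heme, fell from 244, 281 and 227 CPM to 166, 182 and 177 (−0.52, SE 0.08, adjusted p = 3.7e-05). FTH1, the ferritin heavy chain that stores iron, fell from 7525, 8520 and 6939 CPM to 5128, 5512 and 5124 (−0.54, SE 0.09, adjusted p = 6.7e-05). BEST1, whose annotated exons overlap those of FTH1 on the other strand, showed a nearly equal fall (−0.61), and as the strand setting of the counting is not given in the sources used here, the 2 cannot be told apart. TKT (−0.36), an enzyme of the pentose phosphate pathway, and GCLC (−0.45), which makes the first step of glutathione synthesis, fell in all libraries alike, with no overlap. EPHX1, an epoxide hydrolase, rose by 0.46 and lies in the raised run on chromosome 1. With single libraries left out, 5 to 6 members were called lower.

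Metal handling genes changed in both directions, zinc and iron genes alike. The zinc transporters SLC30A4 (158, 139 and 146 CPM in knockdown, 229, 221 and 241 in rescue; 0.64, SE 0.08), SLC39A7 (0.47) and SLC39A14 (0.35) rose, and so did STEAP1 (0.37) and STEAP2 (0.26), of a family of metal reductases, and the transferrin receptor gene TFRC (0.28). The metallothionein MT1G, a small zinc-binding protein, fell from 1.49, 2.61 and 1.29 CPM to 0.881, 0.321 and 0.412 (−1.78, SE 0.37, adjusted p = 0.0019). Besides FTH1 and MT1G, FTL, MT1X and SLC30A1 fell, giving 6 higher and 5 lower of 23 tested. MT1G, MT1X and SLC30A1 lie in shifted blocks, outside which 5 of 17 rose and 2 fell. FTL, MT1X and SLC30A1 were not called when knockdown replicate 2 was left out (adjusted p of 0.19, 0.053 and 0.36), nor without rescue replicate 1. Of the lowered, 2 were called without knockdown replicate 2, 2 without rescue replicate 1, and 3 without rescue replicate 2 or 3.

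Genes of the G2 and M phases of the cell cycle were higher in rescue: 13 of 44 rose, 0 fell and 41 had a positive log2 fold change, with a median of 0.19. The changes were small. MAD2L1, of the spindle checkpoint, rose from 68.3, 73.8 and 77.5 CPM to 114, 118 and 97.9 (0.58, SE 0.09, adjusted p = 6.5e-05). CCNA2, cyclin A2, rose from 88.2, 95.5 and 95.7 CPM to 121, 126 and 126 (0.42, SE 0.08, adjusted p = 0.00077). ASPM, a spindle pole protein, rose from 40.5, 33.8 and 37.1 CPM to 54.5, 49.6 and 50.7 (0.47, SE 0.10, adjusted p = 0.0013), and the spindle regulator DLGAP5 from 88.5, 79.2 and 71.1 to 109, 111 and 99.6 (0.42, SE 0.10, adjusted p = 0.0043). In each of these the lowest rescue library exceeded the highest knockdown library. MAD2L1, CCNA2 and ASPM lie in shifted blocks and DLGAP5 does not. TOP2A, the topoisomerase that untangles sister chromatids, rose by 0.29 and lost its call without rescue replicate 1 (adjusted p = 0.084). The proliferation marker MKI67 was at 164, 114 and 146 CPM in knockdown and 180, 153 and 173 in rescue and was not called (adjusted p = 0.20). Without rescue replicate 1 only 5 members were called and without knockdown replicate 2 only 6, and 8 of 36 rose outside the shifted blocks. Of 40 genes of G1/S and replication 3 rose and 2 fell (median 0.07). These 12.5% called are near the 12.6% of all protein-coding genes tested. RFC3, a clamp loader subunit, rose by 0.66 and the licensing factor CDT1 fell by 0.38. Without rescue replicate 1 the counts were 1 higher and 1 lower.

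Promoters of mitosis genes are known for 2 sequence elements, the cell cycle homology region (CHR, TTTGAA) and CCAAT boxes. Of the 37 tested members with a window, 25 (67.6%) held TTTGAA on either strand and 28 (75.7%) held CCAAT, against 9.51% and 36.4% of all tested genes' windows. Among the 12 called members these were 10 (83.3%) and 9. The 250 bases upstream of 3 called members that hold TTTGAA there are shown to let the shared elements be seen: ASPM (chr1:197146670-197146919, minus strand), DLGAP5 (chr14:55191586-55191835, minus strand) and TOP2A (chr17:40417897-40418146, minus strand), all GRCh38.p14 from RefSeq, with both elements on either strand in capitals.
ASPM: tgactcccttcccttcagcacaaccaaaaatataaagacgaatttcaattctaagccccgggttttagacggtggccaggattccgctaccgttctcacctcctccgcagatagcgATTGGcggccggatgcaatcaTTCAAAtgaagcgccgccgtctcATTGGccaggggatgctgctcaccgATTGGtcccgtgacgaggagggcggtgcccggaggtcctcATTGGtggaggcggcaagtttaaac
DLGAP5: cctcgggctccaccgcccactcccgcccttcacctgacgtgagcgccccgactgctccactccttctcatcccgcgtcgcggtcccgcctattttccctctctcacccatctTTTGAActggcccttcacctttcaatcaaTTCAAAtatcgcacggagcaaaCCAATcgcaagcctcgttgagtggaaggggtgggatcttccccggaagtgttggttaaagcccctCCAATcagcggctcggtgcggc
TOP2A: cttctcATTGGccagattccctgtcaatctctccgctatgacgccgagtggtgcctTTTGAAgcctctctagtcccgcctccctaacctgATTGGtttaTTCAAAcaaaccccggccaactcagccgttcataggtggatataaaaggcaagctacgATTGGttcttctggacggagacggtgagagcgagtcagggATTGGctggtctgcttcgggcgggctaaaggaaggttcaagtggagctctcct
The windows hold 5, 4 and 6 matches in all. A match describes letters in these windows, and its relation to the changes was not tested.

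Histone genes rose in 13 of 28 tested cases and fell in 0, with a median of 0.29. H2AJ, a variant H2A encoded outside the clusters, rose from 22.5, 25.3 and 21.5 CPM to 74.9, 77.2 and 71.7 (1.69, SE 0.09, adjusted p = 2.2e-13), with control between at 58.3 to 66.2. H2BC5 rose from 80.6, 84.6 and 81.9 CPM to 130, 146 and 124 (0.70, SE 0.08, adjusted p = 9.4e-07), and H2AC11 from 7.09, 8.24 and 8.46 to 19, 13.8 and 20.3 (1.16, SE 0.17, adjusted p = 1.8e-05). H2BC5 and H2AC11 belong to the histone cluster of chromosome 6, and 16 of the 28 tested genes lie in shifted blocks. Outside them 3 of 12 rose, H2AJ and H2BC21 (0.49) among them, and the median was 0.15. Transcripts of clustered histone genes are known to lack a poly(A) tail for the most part, and how RNA was selected for these libraries is not given in the sources used here. Near-identical copies in the cluster make the values of single members uncertain.

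Histone promoters also share CCAAT boxes, often with a TATA box. CCAAT was found in 22 of 27 windows of tested histone genes (81.5%) and TATAAA in 17 (63.0%), against 36.4% and 5.82% of all tested genes' windows, and all 12 called members with a window held CCAAT. H2AJ (chr12:14774155-14774404, plus strand) and H2BC5 (chr6:26157871-26158120, plus strand; both GRCh38.p14) are printed as the called members with the smallest adjusted p, with CCAAT and TATAAA in capitals on either strand.
H2AJ: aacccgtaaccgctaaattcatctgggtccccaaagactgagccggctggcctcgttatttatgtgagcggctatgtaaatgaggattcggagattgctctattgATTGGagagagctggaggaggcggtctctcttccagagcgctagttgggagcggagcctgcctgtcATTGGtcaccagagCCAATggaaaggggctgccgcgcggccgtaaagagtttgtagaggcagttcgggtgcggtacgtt
H2BC5: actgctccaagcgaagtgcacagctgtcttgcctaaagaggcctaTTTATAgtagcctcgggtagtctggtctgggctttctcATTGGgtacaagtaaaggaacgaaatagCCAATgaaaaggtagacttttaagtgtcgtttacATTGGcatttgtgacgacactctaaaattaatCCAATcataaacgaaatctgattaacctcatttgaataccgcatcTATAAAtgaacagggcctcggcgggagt
The H2AJ window holds 3 matches and the H2BC5 window 6.

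All 13 mitochondrially encoded mRNAs, which code for subunits of the respiratory chain and ATP synthase, had a positive log2 fold change and 11 of them rose. MT-ND6 rose from 346, 402 and 346 CPM to 501, 504 and 527 (0.48, SE 0.08, adjusted p = 6.2e-05), and MT-ND5 from 1061, 1168 and 1119 to 1507, 1387 and 1753 (0.47, SE 0.09, adjusted p = 0.001). MT-CO2 rose from 1606, 1909 and 1679 CPM to 2154, 2247 and 2589 (0.43, SE 0.09, adjusted p = 0.0018). The rescue libraries differed among themselves, with replicate 3 highest for MT-ND5 and MT-CO2. MT-ND1 (0.17, adjusted p = 0.31) and MT-ND2 (0.15, adjusted p = 0.34) were not called. Summed over the 13, the level was 17355, 20454 and 18861 CPM in knockdown and 22897, 22817 and 27247 in rescue, below the 31850 to 38628 of control. Without rescue replicate 3 the count of called genes was 5 and without knockdown replicate 1 it was 7. The transcripts come from shared precursors, so they are not independent. Nuclear genes for the same complexes did not follow: 0 rose and 2 fell of 76 tested (median −0.004, a sign that turned to 0.02 with no scaling factor). Mitochondrial transcription and RNA processing factors had 0 higher and 1 lower of 31, with TFAM, which packages mitochondrial DNA, at 67.2, 69.4 and 56.7 CPM in knockdown and 52.9, 59.7 and 54.7 in rescue (adjusted p = 0.15).

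**Figure D5:**
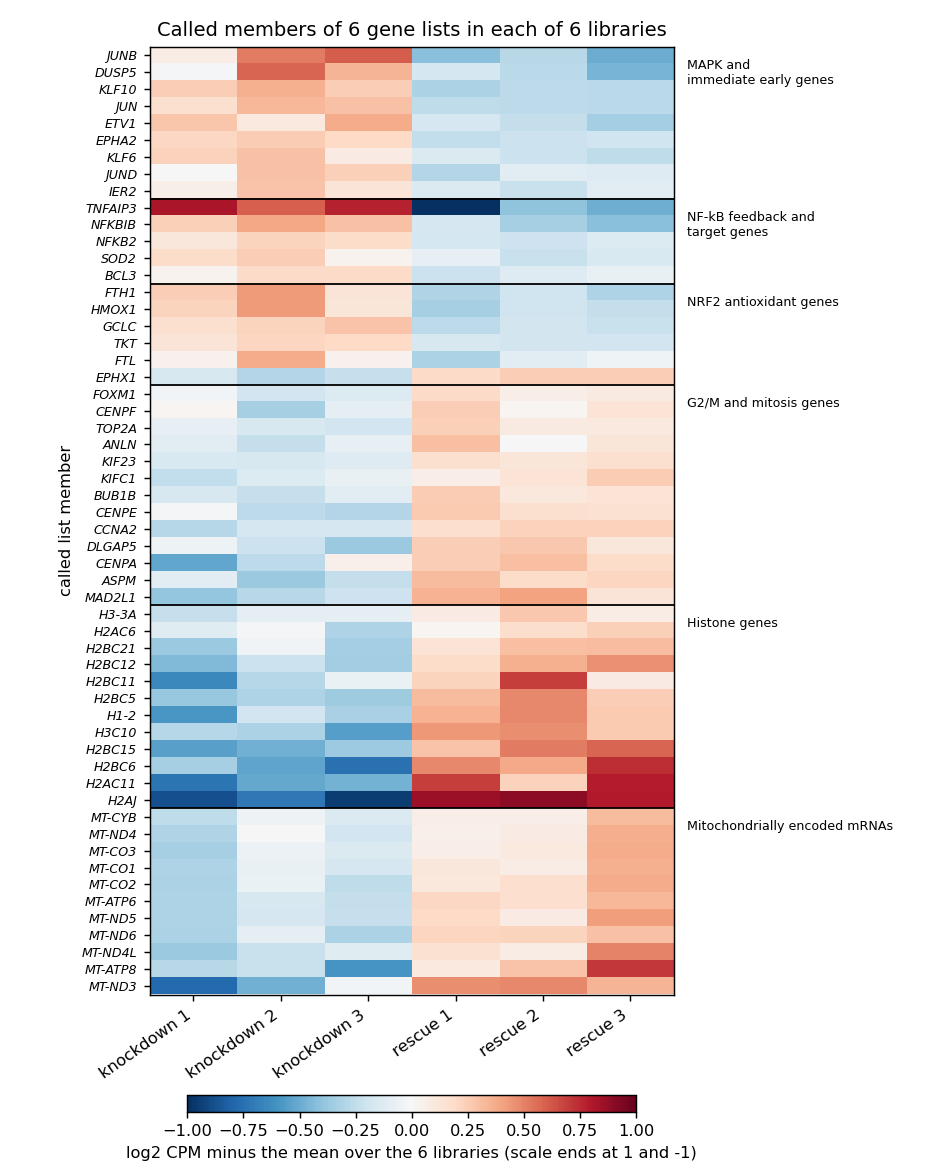
Log2 CPM minus the mean over the 6 libraries (colour, red above and blue below) for called members of 6 gene lists, in the 3 knockdown and 3 rescue libraries. The first 3 lists are red in knockdown and blue in rescue except EPHX1, the last 3 are the reverse, and rescue replicate 3 has the deepest red for most mitochondrially encoded mRNAs.

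Cytosolic ribosomal protein genes were lower as a group, with 20 of 79 fallen, 0 risen, 5 with a positive log2 fold change and a median of −0.21. RPL28 fell from 764, 1011 and 916 CPM to 563, 641 and 645 (−0.54, SE 0.09, adjusted p = 7.8e-05), RPL13 from 1940, 2209 and 2013 to 1374, 1523 and 1405 (−0.52, SE 0.09, adjusted p = 0.00012), and RPL4 from 2974, 3373 and 2893 to 2235, 2395 and 2222 (−0.43, SE 0.08, adjusted p = 0.00078). Their groups did not overlap, although the sum over the list did not separate far: it was 76285, 90412 and 84150 CPM in knockdown and 68283, 74704 and 66744 in rescue. These sums varied by library also in control, at 64775, 90920 and 88802. The count of lower genes was 7 without rescue replicate 1, 8 without knockdown replicate 2 and 10 without knockdown replicate 3 or rescue replicate 3, and 18 of 72 fell outside the shifted blocks. Ribosomal protein genes have many processed pseudogenes, which can take or lend reads. Of 45 translation factors 7 fell and 2 rose: EIF4EBP1, which binds the cap protein eIF4E, fell from 204, 217 and 219 CPM to 161, 172 and 142 (−0.43, SE 0.08, adjusted p = 0.00025), and PABPC1, the poly(A)-binding protein, from 2102, 2198 and 2002 to 1636, 1626 and 1649 (−0.36, SE 0.08). EEF1A2, a tissue-restricted elongation factor, rose from 630, 700 and 613 CPM to 834, 848 and 831 (0.37, SE 0.08, adjusted p = 0.0012). The lower count was 2 without knockdown replicate 2 or rescue replicate 1, 3 without rescue replicate 3 and 4 without rescue replicate 2.

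Chaperones and transport factors of the endoplasmic reticulum rose in 7 of 32 cases and fell in 0, with a median of 0.13. SEC24D, a coat protein of vesicles that leave the reticulum, rose from 78.3, 70.6 and 62.1 CPM to 109, 114 and 109 (0.66, SE 0.08, adjusted p = 1.6e-06). EDEM3, which trims glycans of misfolded proteins, rose from 49.7, 39.9 and 43.6 CPM to 72.7, 64.7 and 68.5 (0.63, SE 0.09, adjusted p = 3e-05), and the lectin chaperone CALR from 554, 543 and 557 to 724, 712 and 642 (0.33, SE 0.07, adjusted p = 0.0027). These 3 had no overlap, and SEC24D and EDEM3 lie in shifted blocks. The count was 4 without rescue replicate 2 and 4 of 26 outside the shifted blocks. Targets of ATF4, a factor of the integrated stress response, were mixed, with 3 higher and 4 lower of 31. DDIT4, an inhibitor of mTORC1, fell from 3036, 3385 and 3368 CPM to 2345, 2369 and 1921 (−0.56, SE 0.09, adjusted p = 6.1e-05), and its antisense gene DDIT4-AS1 showed the same fall (−0.58) and cannot be told apart from it. PPP1R15A, a phosphatase subunit that restores translation, fell from 83.4, 101 and 93.6 CPM to 55.4, 67.0 and 56.6 (−0.63, SE 0.09). NUPR1, a small stress-induced nuclear protein, rose from 379, 455 and 416 CPM to 775, 828 and 757 (0.92, SE 0.09, adjusted p = 2.2e-07), and the arginine transporter SLC7A1 by 0.47. Of 29 p53 targets 4 rose and 0 fell (13.8% called, against 10.1% of all genes tested and 12.6% of protein-coding genes). The raised members included the cell cycle inhibitor CDKN1A, from 420, 488 and 446 CPM to 583, 660 and 667 (0.50, SE 0.08, adjusted p = 8.6e-05), and ZMAT3 (0.44). CDKN1A and PHLDA3 (0.23) lie in shifted blocks. PHLDA3, a repressor of AKT, lost its call without 4 of the libraries (adjusted p = 0.11 without rescue replicate 2). Outside the shifted blocks, where 8.84% of all genes were called, 2 of 25 p53 targets rose.

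Fatty acid genes changed in both directions, 8 higher and 5 lower of 31. Along with FADS2, its neighbour FADS1, the delta-5 desaturase, rose from 292, 270 and 277 CPM to 383, 356 and 346 (0.37, SE 0.07, adjusted p = 0.00049). Exons of FADS2 overlap those of FADS1 and FEN1. ELOVL7, an elongase, rose from 24.9, 24.5 and 22.6 CPM to 41.7, 44.3 and 40.1 (0.81, SE 0.11, adjusted p = 3.5e-06), and ACLY, which supplies cytosolic acetyl-CoA, from 941, 882 and 842 to 1195, 1105 and 1092 (0.35, SE 0.08, adjusted p = 0.0025). The activating enzymes ACSL1 and ACSL3 each rose by 0.37. In the opposite direction ELOVL1, another elongase, fell from 229, 233 and 209 CPM to 164, 167 and 163 (−0.44, SE 0.07, adjusted p = 6e-05), FADS3 by 0.54, and SREBF1, the transcription factor that drives many of these genes, from 994, 1004 and 1065 to 810, 791 and 849 (−0.32, SE 0.07, adjusted p = 0.0035). None of these genes had overlapping groups, and the lower count was 3 without knockdown replicate 3, and 3 of 27 outside the shifted blocks. FASN, the synthase, was at 4812, 4478 and 5157 CPM in knockdown and 5740, 5358 and 5633 in rescue and was not called (0.21, adjusted p = 0.17). Of 31 cholesterol genes 3 rose and 2 fell (16.1% called, against 12.6% of protein-coding genes). Only 1 rose without knockdown replicate 1 or 3 or rescue replicate 2. Only 1 fell without knockdown replicate 2 or 3 or rescue replicate 1 or 3. The lysosomal exporter NPC1 fell from 65.2, 64.7 and 67.4 CPM to 45.3, 39.9 and 47.0 (−0.58, SE 0.09, adjusted p = 4.2e-05).

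Glycolysis genes were mixed as well, 4 higher and 3 lower of 25 with a median of 0.004. Besides ENO2, the phosphofructokinase PFKP rose from 254, 240 and 259 CPM to 360, 330 and 326 (0.43, SE 0.07, adjusted p = 0.00014), while its paralog PFKL fell from 427, 460 and 460 to 361, 343 and 324 (−0.39, SE 0.07, adjusted p = 0.00051). PFKFB3, which makes the activator of phosphofructokinase, rose by 0.39. Both phosphofructokinase subunits showed separate groups, and PFKL lies in the lowered run on chromosome 21. In amino acid and polyamine metabolism ASS1, of arginine synthesis, fell from 195, 215 and 181 CPM to 141, 139 and 135 (−0.51, SE 0.08, adjusted p = 6e-05), and ODC1, which makes putrescine, rose from 285, 295 and 278 to 386, 376 and 339 (0.36, SE 0.07, adjusted p = 0.0015).

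Adhesion and matrix genes were among the larger single changes without a common direction. Of 31 mesenchymal and matrix genes 4 rose and 6 fell. LOX, which crosslinks collagen, rose from 52.4, 48 and 48 CPM to 128, 121 and 109 (1.27, SE 0.09, adjusted p = 7.2e-11). TIMP2, an inhibitor of matrix metalloproteases, rose from 34.2, 33.8 and 30.1 CPM to 63.9, 58.9 and 59.2 (0.89, SE 0.09, adjusted p = 5.7e-08), the level of control. Laminin subunits moved apart: LAMA3 fell from 68.5, 57.6 and 67.0 CPM to 39.6, 33.0 and 41.4 (−0.76, SE 0.10, adjusted p = 3e-06) and LAMC1 rose by 0.38. All of these had separate groups. The count of lower genes was 3 without rescue replicate 2. In epithelial junctions CLDN4, a tight junction claudin, fell from 774, 865 and 780 CPM to 571, 614 and 600 (−0.44, SE 0.08, adjusted p = 0.00022), and the desmosomal cadherin DSG2 from 257, 233 and 249 CPM to 203, 200 and 172 (−0.36, SE 0.08), while DSC2, another, rose from 39.2, 39.6 and 40.1 to 60.6, 62.0 and 53.7 (0.57, SE 0.10, adjusted p = 0.00021). In all 5 of 30 fell and 1 rose, with 3 lower without knockdown replicate 2, rescue replicate 1 or rescue replicate 3. At focal adhesions 5 rose and 3 fell of 34, with ZYX, zyxin, falling from 198, 202 and 186 CPM to 146, 145 and 144 (−0.43, SE 0.08, adjusted p = 0.00025) beside the rise of PARVA. Only 1 rose without rescue replicate 1 and 3 without knockdown replicate 3.

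Lysosome and autophagy genes fell in 8 of 51 cases and rose in 1. FUCA2, a fucosidase, fell from 39.7, 39.2 and 45.6 CPM to 21.9, 24.8 and 20.2 (−0.90, SE 0.11, adjusted p = 2.9e-06), where control was at 0.278 to 0.454 CPM. SGSH, which degrades heparan sulfate, fell from 59.9, 68.6 and 73.6 CPM to 49.1, 47.7 and 53.9 (−0.42, SE 0.09, adjusted p = 0.0014), and LAMP1, a membrane protein of the lysosome in the raised blocks of chromosome 13, rose by 0.37. The lower count was 4 without rescue replicate 1 and 5 without knockdown replicate 2. The insulin and PI3K group was mixed, with 5 higher and 3 lower of 31 (3 and 3 of 24 outside the shifted blocks). With 1 library left out, 2 to 5 rose and 1 to 3 fell. INPP4B, a lipid phosphatase that opposes AKT, rose from 3.20, 3.07 and 1.84 CPM to 5.97, 6.41 and 8.04 (1.33, SE 0.23, adjusted p = 0.00025) and SESN3, a sestrin induced by FOXO factors, by 0.41. The lowered members were IGFBP3 (−1.19), IRS1 (−0.99) and BCL6 (−0.31). IRS1 and BCL6 lost the call without rescue replicate 2 or rescue replicate 3. Of the EGF receptor family and its regulators LRIG1, which lowers receptor levels, rose from 191, 170 and 197 CPM to 262, 237 and 238 (0.40, SE 0.07, adjusted p = 0.00041) and was the only called member of 23 that kept its call with every library left out. Interferon and RNA sensor genes had 4 higher and 1 lower of 36 (13.9% called, against 10.1% of all genes tested and 12.6% of protein-coding genes). OAS3, an antiviral synthase, rose from 7.62, 5.97 and 7.31 CPM to 13.8, 10.7 and 12.1 (0.80, SE 0.17, adjusted p = 0.002) and IFI35 from 1.52, 1.26 and 1.56 to 5.39, 3.77 and 3.78 (1.56, SE 0.33, adjusted p = 0.0016), opposite to DHX58. Without rescue replicate 3 the higher count was 2.

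Markers of cell types were compared to show what the libraries could hold. Summed luminal markers were at 9056 to 9506 CPM in knockdown and 9196 to 10211 in rescue, and 5 of 13 tested rose and 2 fell (3 rose without knockdown replicate 2 or rescue replicate 1, and 0 fell without rescue replicate 3). Outside the shifted blocks 3 of 9 rose and 1 fell. ACP3, prostatic acid phosphatase, rose from 3.43, 2.90 and 3.03 CPM to 6.51, 5.57 and 6.36 (0.97, SE 0.20, adjusted p = 0.0013). Basal markers summed to 77.9 to 94.2 CPM in knockdown and 83.1 to 91.4 in rescue, with 0 of 6 tested called, and TP63 had 5 counts over the 6 libraries. Neuroendocrine markers summed to 686 to 816 and 1149 to 1183 CPM, nearly all of it ENO2. The defining members CHGB and SCG2 had 0 counts and CHGA had 1 over the 6 libraries, so the rise of ENO2 came without them. Fibroblast markers summed to 46.7 to 57.2 and 61.6 to 73.8 CPM, nearly all of it COL1A1 (0.39), which lost its call without knockdown replicate 1 (adjusted p = 0.073) and without rescue replicate 2 (0.09), while DCN had 1 and PDGFRA and FAP 0 counts. Endothelial and immune markers stayed at 2.61 to 7.26 CPM in sum, and PTPRC and CDH5 had 0 counts.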

How the data were processed

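RNA from 9 LNCaP libraries was sequenced, 3 each of control, knockdown and rescue. The deposited files hold raw counts of reads per gene for 60880 gene rows, as the values show. The submitters' processing notes name hg19 and the tools HTSeq, HISAT2, cutadapt and FastQC, with versions, library kit and strand setting not given in the sources used here. Symbols came from a name table for 56414 rows and from GENCODE v29 alone for 444, and 4022 had no symbol. Summary rows that name no gene (reads in no gene, 48.8% to 50.7% of each table, ambiguous and not uniquely aligned reads) were left out.

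The counts went into edgeR 4.0.16 (R 4.3.3): filterByExpr with a minimum count of 10 (18389 genes), TMM scaling and a robust quasi-likelihood fit of the 9 libraries, a coefficient for each group, leaving 6 residual degrees of freedom. The contrast was rescue minus knockdown. The SE was derived from the log2 fold change and the quasi-likelihood F (the size of the change divided by the root of F). Alternatives used DESeq2 1.42.0 and limma 3.58.1, other scalings and filters, a replicate block and each library left out. Within each group no 2 libraries were duplicates by a chi-square comparison of counts, and pairs across groups were not compared. On counts simulated for this contrast over 17765 genes, 70.1% of 67 genes changed 1.5-fold, 76.1% of 67 changed 2-fold and 95.5% of 66 changed 4-fold were recovered, and 0.07% of unchanged genes were called.

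The members and gene lists were chosen with earlier results of these data known. Named genes are the UGT2 family, the 20 most raised and 20 most lowered called genes (no overlap, at least 5 CPM in the higher group), the 10 most abundant per direction changed at least 1.5-fold, and, per list, up to 4 members ranked by adjusted p plus a member at the opposite end of a mixed list. Further list members (such as KLK3, EGR1, FOS, NFKBIA, MKI67, FASN, FADS1, GCLC, LAMA3 and MT1G) and TOP2A were named after their values were seen. Y-linked genes are left out, and some other genes are not reported here. Coordinates are only those of RefSeq promoter windows (GRCh38.p14), found for 155 of 204 named genes. Gene order and exon overlap came from GENCODE v29.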

Additional observations from a re-analysis of the deposited data

How the results depend on the processing

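The count of 1854 called genes, 957 higher and 897 lower, was 1764 to 2319 under the other tools, scalings, filters and sample sets. With a replicate block it was 2319 (1184 higher, 1135 lower). Over all genes, same-numbered libraries did not deviate together (correlations −0.022, 0.007 and −0.022). Such a correlation cannot show whether smaller sets of genes share an effect of the replicate number, so pairing was not settled. DESeq2 called 2074, limma voom 1854, and 4203 genes had an unadjusted p under 0.05. A test against a fold above 1.5 left 113 genes, 70 higher and 43 lower. Leaving out 1 library gave 1193 to 1480 calls, 636 to 777 of them higher and 557 to 703 lower, and UGT2B28 a log2 fold change of 6.95 to 8.265. Restricted to genes outside the shifted blocks, an alternative added after seeing the data, 694 rose and 741 fell. With no scaling factor 1059 genes were higher and 705 lower, and the median over all genes moved from −0.005 to 0.018. Of 204 named genes none changed sign under any of the 16 settings run on them, 0 to 5 lost their call under other tools, scalings, filters or the block, and 14 to 30 with a library left out. With the block, 31 ribosomal protein genes were lower, 8 focal adhesion genes higher and 7 ATF4 targets lower, and with only the 6 libraries compared 32 ribosomal protein genes were lower. Depth limits genes under about 1 CPM, where a library holds few counts per gene.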

Other observations

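Some of the largest fold changes lay below the level asked of named genes, and were looked at after their values were seen. MIMT1, a noncoding gene that lies next to PEG3 in the same imprinted cluster, had 2, 1 and 2 counts in knockdown, 14, 22 and 17 in rescue and 0 in every control library (edgeR adjusted p = 0.018). ZIM2, which shares exons with PEG3, had 13, 3 and 5 counts in knockdown and 9, 33 and 19 in rescue and was not called (adjusted p = 0.24). RAI2, a gene induced by retinoic acid, had 39, 50 and 50 counts in knockdown and 1 in each rescue library, a ratio of 46.5 (95% counting interval 15.6 to 228), with 4, 6 and 1 in control. This exact interval covers counting error only.

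The ephrin receptor gene EPHA3 had 77, 40 and 58 counts in knockdown and 10, 2 and 6 in rescue (adjusted p = 0.00012). TPBG, a surface glycoprotein, had 1, 0 and 1 counts in knockdown and 9, 15 and 31 in rescue, with 6, 4 and 3 in control, and the keratin KRT75 had 0, 2 and 0 against 9, 15 and 13, with 32, 18 and 27 in control. KLF4, an epithelial zinc finger factor in no list here, fell from 26.5, 23.2 and 30.6 CPM to 14.9, 13.9 and 15.4 (log2 fold change −0.86, SE 0.12, adjusted p = 7.1e-06), with no overlap between the groups.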
